A study of Mus musculus with 6 samples.

Results

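The claudins and their tight junction partners were followed through stria vascularis carrying a conditional mutation of Errb and through wild-type stria vascularis. The genes were Cldn3, Cldn4, Cldn7, Cldn8, Cldn9, Cldn10, Cldn11, Cldn14, Ocln and Tjp1, chosen by name, and every probe set to which the platform annotation gives exactly 1 of these symbols was used. This gave 15 probe sets for the 10 genes, of 45037 probe sets and 18193 named genes on the array. The Errb mutant group held 3 RNA pools and the wild-type group 3, each of 10 mice and each measured on 1 Affymetrix array. Errb, also called Nr3b2 and now Esrrb, is the gene of an orphan nuclear receptor, estrogen-related receptor beta. The stria vascularis is an epithelium in the lateral wall of the cochlea; the design text names whole inner ears instead, and the sample labels were followed. The sources used here give no Cre driver, strain or deleted exon, and they state an age (postnatal days 3 to 5) only for the first wild-type pool.

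Tight junctions seal the space between neighbouring epithelial cells. Claudins form their strands, and the mixture of claudins sets which ions leak through. Occludin lies in the same strands, and the scaffold protein encoded by Tjp1 ties the strands to the cytoskeleton. In the stria, the basal cells are sealed by junctions rich in Cldn11, which isolate the fluid space within the stria, and mice without Cldn11 lose much of the endocochlear potential. The marginal cells, which face the endolymph, and the epithelia around the cochlear duct carry a wider mixture of claudins. Loss of Cldn9, Cldn14 or Ocln causes hearing loss in mice.

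No claudin, and neither Ocln nor Tjp1, passed the test for a difference between mutant and wild-type stria. Ocln had the largest difference, with lower values in the mutant of all 3 replicate pairs, and the basal cell claudin Cldn11 came next, also lower in all 3. Cldn8 was the only 1 of the 10 genes with higher mutant values in all 3 pairs. The other 7 genes differed by between -0.15 and 0.28 on the log2 scale. Differences are log2 values, mutant minus wild type, taken within pairs of same-numbered arrays and averaged (mean ± SD, n = 3 pairs). The adjusted p-values come from limma with the replicate number as a block, adjusted over all 45037 probe sets, and differences with adjusted p under 0.05 were called. By that rule 0 of the 10 genes were called, where 0.148% of all named genes were (27 of 18193, each by its best expressed probe set). Without the block 0 of the 10 were called as well, beside 0.0055% of all named genes. At an unadjusted p under 0.05, limma's paired fit held 4 of the 15 probe sets, against 7.18% of all probe sets, and the fit without the block held 0, against 0.209%. Both Ocln probe sets are among those 4. By the best expressed probe set, the paired fit held 3 of the 10 genes, against 7.35% of all named genes. The 10 genes were chosen with earlier results known. In limma's paired fit, the 95% intervals of the 15 probe sets together ran from -0.98 to 0.77, so each lay within a 2-fold change by that fit. Intervals of the fit without the block are not given here.

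Some features of the arrays touch these values. Same-numbered arrays share a scale and arrays of different numbers do not: medians were 6.08, 6.94 and 6.38 in mutant replicates 1 to 3 and 6.07, 6.95 and 6.42 in wild type. Differences are therefore read within pairs, and overlap of the genotypes over all arrays is expected from the scale alone. Pair 1 stood apart in RNA quality, with 3' minus 5' control probe set values for Gapdh of 2.57 in the mutant and 2.28 in wild type, against -0.04 to 0.51 on the other 4 arrays. The gap was wider in the mutant of pair 3 too (0.51 and -0.04), and the part of RNA quality in the results was not tested. For that reason the mean without pair 1 stands beside the main values. The 3 Esrrb probe sets differed by -0.07, -0.18 and -0.42 without being called, and since no source places them relative to the deletion, they are no check of the labels. Some strial markers were high on the wild-type arrays. Slc12a2 of marginal cells averaged 12.72, Dct of intermediate cells 12.32 and Gjb6 of basal cells 12.45. Others of the same cell types averaged less, such as Atp13a5 of marginal cells at 7.28, Tyrp1 of intermediate cells at 5.18 and Sox8 of basal cells at 6.91. Some markers of neighbouring tissue were as high as Slc12a2, Dct and Gjb6, or nearly so. Car3 of spiral ligament fibrocytes averaged 13.88, Epyc of spindle, root and outer sulcus cells 12.81 and Oc90 of Reissner membrane 11.44, while others were low, such as Otx2 of Reissner membrane at 5.37. These levels therefore do not tell stria from a wider piece of tissue.

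The promoters of the 2 genes with the largest negative differences are shown because the mutated factor binds DNA. Each is the RefSeq window from 250 bases before to 50 after the gene's start in build GRCm38.p6, read 5′ to 3′ on the gene's strand, for Ocln that of the more upstream of 2 starts. Cldn11 lies at chr3:31149670-31149969 on the plus strand and Ocln at chr13:100552669-100552968 on the minus strand. Capitals mark the E-box letters CACCTG on either strand, the kind of site that repressors of the Snail family bind in epithelial junction genes.
Cldn11: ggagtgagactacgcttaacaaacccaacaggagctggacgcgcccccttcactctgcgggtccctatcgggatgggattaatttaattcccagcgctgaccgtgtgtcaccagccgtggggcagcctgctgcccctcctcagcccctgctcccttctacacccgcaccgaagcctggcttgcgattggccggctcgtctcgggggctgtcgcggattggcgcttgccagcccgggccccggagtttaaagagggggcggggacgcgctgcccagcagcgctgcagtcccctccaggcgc
Ocln: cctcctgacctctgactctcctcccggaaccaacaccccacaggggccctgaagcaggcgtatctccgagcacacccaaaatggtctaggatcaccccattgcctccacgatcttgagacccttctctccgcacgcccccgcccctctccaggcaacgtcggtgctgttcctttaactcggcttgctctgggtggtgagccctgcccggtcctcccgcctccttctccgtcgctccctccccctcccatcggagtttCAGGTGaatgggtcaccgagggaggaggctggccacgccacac
The response element of estrogen-related receptors was searched on both strands as TNAAGGTCA, and its core as AAGGTCA, which the longer motif contains. RefSeq windows were at hand for 8 of the 10 genes, 13 windows in all, and 0 of the 13 held either motif, against 1.28% and 4.72% of all 32851 windows. The E-box letters stood in 6 of the 13 windows, belonging to Cldn3, Cldn4, Cldn7, Cldn14 and Ocln, against 20.2% of all windows. The Cldn11 window held none, and the Ocln window held 1, which begins at base 8 after the start. These are matches of letters and not binding sites.

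Cldn11, the claudin of strial basal cells, had 1 probe set. Its level was 9.91, 11.43 and 10.71 in mutant replicates 1 to 3, against 10.37, 11.90 and 10.90 in wild-type replicates 1 to 3. The mutant array was the lower one of each pair, while the genotypes overlapped across pairs. Levels averaged 10.68 ± 0.76 in the mutant and 11.06 ± 0.78 in wild type (SD, n = 3 each). The pair differences were -0.46, -0.48 and -0.18, a mean of -0.37 ± 0.16, or 1.30-fold lower in the mutant. The 95% interval ran from -0.59 to -0.15, the adjusted p was 0.428 in limma's paired fit, and without pair 1 the mean was -0.33. Of all probe sets, 2.24% had a more negative difference. Because these are whole pieces of tissue, fewer cells of a type and less RNA per cell cannot be told apart.

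Other basal cell markers were examined beside Cldn11. The 5 that are not among the 10 genes had a median difference of -0.18, with -0.33, -0.14 and -0.20 in pairs 1 to 3, and their mean level lay between 9.41 and 10.61 in the mutant and between 10.05 and 10.99 in wild type. Only Gjb6, the connexin 30 gene, was called among them (-1.27, adjusted p = 0.0304 in limma's paired fit). Gjb2, its partner connexin gene, differed by -0.72, the glucose transporter gene Slc2a1 by -0.18, the transcription factor gene Nr2f2 by -0.11, and Sox8 by 0.28, none of them called. Gjb2 and Gjb6 are expressed by fibrocytes of the lateral wall too. Cldn11 is also the claudin of oligodendrocyte myelin. The 6 measured of 8 listed markers of Schwann cells and oligodendrocytes had a median difference of 0.07, with mean levels of 6.47 to 7.15 in the mutant and 6.18 to 7.16 in wild type. Mog, which defines oligodendrocytes, averaged 3.52 in the mutant and 3.47 in wild type and lay at or below the 5.36 percentile of all probe sets on each array. It was the lowest of the measured markers. The others ranged from Cldn19, at the 20.6 to 32.6 percentile, to Pmp22, at the 94.6 to 98.1 percentile. Mobp lay at the 45.2 to 50.7 percentile and Mbp at the 72.9 to 76.1 percentile. The part of either marker list in the Cldn11 difference was not tested.

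**Figure D1:**
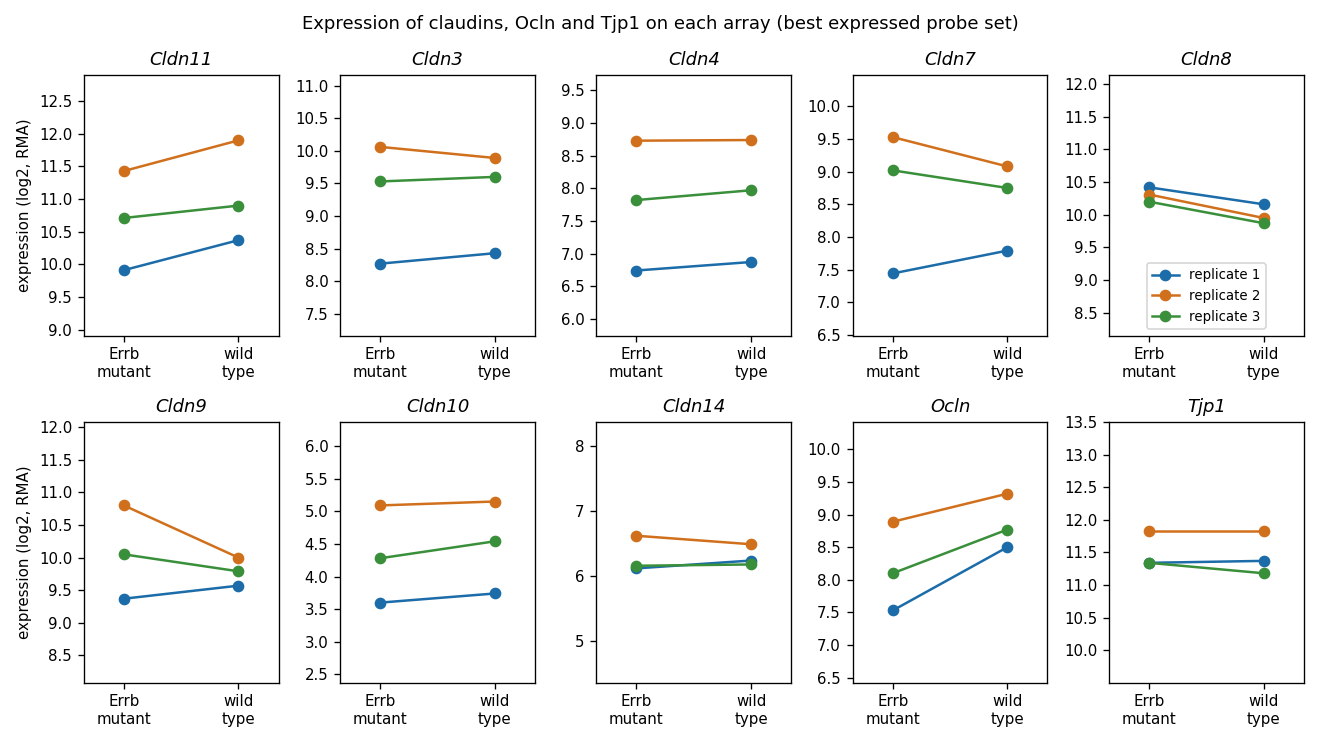
Expression of the 10 genes on each array, on the log2 scale (RMA), for the best expressed probe set, with Errb mutant at the left and wild type at the right of each panel and a line joining the 2 arrays of a replicate number. Each panel spans the same height in log2 units. Lines for Cldn11 and Ocln go up to wild type in all 3 pairs, those for Cldn8 go down in all 3, and in most panels the lines stand apart by pair.

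Among the claudins of other epithelia, Cldn8, which tightens the barrier of the kidney collecting duct, was higher in the mutant of each pair. Its level was 10.42, 10.31 and 10.20 in mutant replicates 1 to 3, against 10.16, 9.95 and 9.87 in wild type. In the deposited values all 3 mutant arrays were above all 3 wild-type arrays, as for no other of the 15 probe sets and for 0.764% of all probe sets. Arrays of different numbers do not share a scale, so this separation across pairs depends on the scales and adds little to the pair differences. The pair differences of 0.26, 0.36 and 0.33 averaged 0.32 ± 0.05, or 1.25-fold higher in the mutant, with a 95% interval of 0.15 to 0.49 and an adjusted p of 0.369 in limma's paired fit. Without pair 1 the mean was 0.34. Of all probe sets, 2.1% had a larger positive difference. Being higher in all 3 pairs was common on these arrays, in 12.9% of all named genes. Markers of neighbouring epithelia were examined beside Cldn8. The 4 Reissner membrane markers were each higher in all 3 pairs, with medians of 0.20, 0.22 and 0.41 and mean levels of 8.41 to 8.69 in the mutant and 7.87 to 8.31 in wild type. The 5 markers of spindle, root and outer sulcus cells, which share Slc26a7 with that list, were divided: 3 were higher and Epyc was lower in all 3 pairs, and Lgr5 differed by -0.05. They had medians of 0.06, 0.18 and 0.21 and mean levels of 10.07 to 10.83 in the mutant and 9.87 to 10.49 in wild type. None of these markers was called, and their part in the Cldn8 values was not tested.

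Cldn9 and Cldn7 varied most between pairs. Cldn9, a claudin of cochlear hair cells and supporting cells, had levels of 9.37, 10.80 and 10.05 in the mutant, against 9.57, 10.00 and 9.79 in wild type, by its best expressed probe set. The mutant was lower in pair 1 and higher in pairs 2 and 3, with a mean difference of 0.28 ± 0.50 and an adjusted p of 0.753 in limma's paired fit. Without pair 2 the Cldn9 mean was 0.03 and without pair 1 it was 0.53. The second Cldn9 probe set differed by 0.04 ± 0.49. Of 10 hair and supporting cell markers, 5 had their highest difference in pair 2, where 27.7% of all named genes did. That count was made after the values were seen. The 10 markers had medians of -0.03, 0.23 and 0.07 in pairs 1 to 3, with mean levels of 6.02 to 7.29 in the mutant and 5.98 to 6.76 in wild type, and their part in the Cldn9 values was not tested. These markers differed widely in level. The hair cell transcription factor gene Pou4f3 averaged 4.58 in the mutant and 4.51 in wild type, at or below the 21.2 percentile on each array. Otog averaged 9.40 and 8.32, and Tectb 8.86 and 8.03. Of the 10, 7 had positive and 3 negative mean differences. Otog (1.08) and Tectb (0.84, with 2.36 in pair 2) had the largest, and none was called.

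Cldn7, a claudin that binds the adhesion protein EpCAM, had levels of 7.44, 9.53 and 9.02 in the mutant, against 7.79, 9.08 and 8.75 in wild type. The mutant array was lower in pair 1 and higher in pairs 2 and 3. The mean difference was 0.12 ± 0.42, with a 95% interval of -0.29 to 0.53, and became 0.36 without pair 1 and -0.04 without pair 2. Epcam went the same way in each pair, at -0.45, 0.19 and 0.44, with an adjusted p of 0.936 in limma's paired fit.

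Cldn3 and Cldn4 are sealing claudins of many epithelia. The best expressed of 4 Cldn3 probe sets read 8.27, 10.06 and 9.53 in the mutant, against 8.43, 9.89 and 9.60 in wild type, lower in pairs 1 and 3 and higher in pair 2. All 4 probe sets had this order of signs, and their mean differences lay between -0.08 and 0.02. The least expressed of the 4 stood far lower on the arrays of pair 1, at 5.31 in the mutant and 5.34 in wild type, than on those of pairs 2 and 3, where it read 7.70 to 8.43. Cldn4 read 6.74, 8.73 and 7.82 in the mutant, against 6.87, 8.74 and 7.97 in wild type. It was lower in the mutant of all 3 pairs by small amounts, -0.10 ± 0.08 on average (95% interval -0.28 to 0.08).

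Cldn10 and Cldn14 gave weak signals. Cldn10, whose isoforms form ion-selective pores between cells, read 3.60, 5.09 and 4.28 in the mutant, against 3.74, 5.15 and 4.54 in wild type. Its only probe set lay between the 8.33 and 18.5 percentile of all probe sets, so that little can be read from its difference of -0.15 ± 0.10. Cldn14, a claudin of the organ of Corti, read 6.12, 6.62 and 6.16 in the mutant, against 6.24, 6.49 and 6.18 in wild type. Both genotypes averaged 6.30, with a 95% interval of -0.20 to 0.20 for the difference. Whether Cldn10 is expressed here cannot be told from the deposited values, which carry no detection calls.

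**Figure D2:**
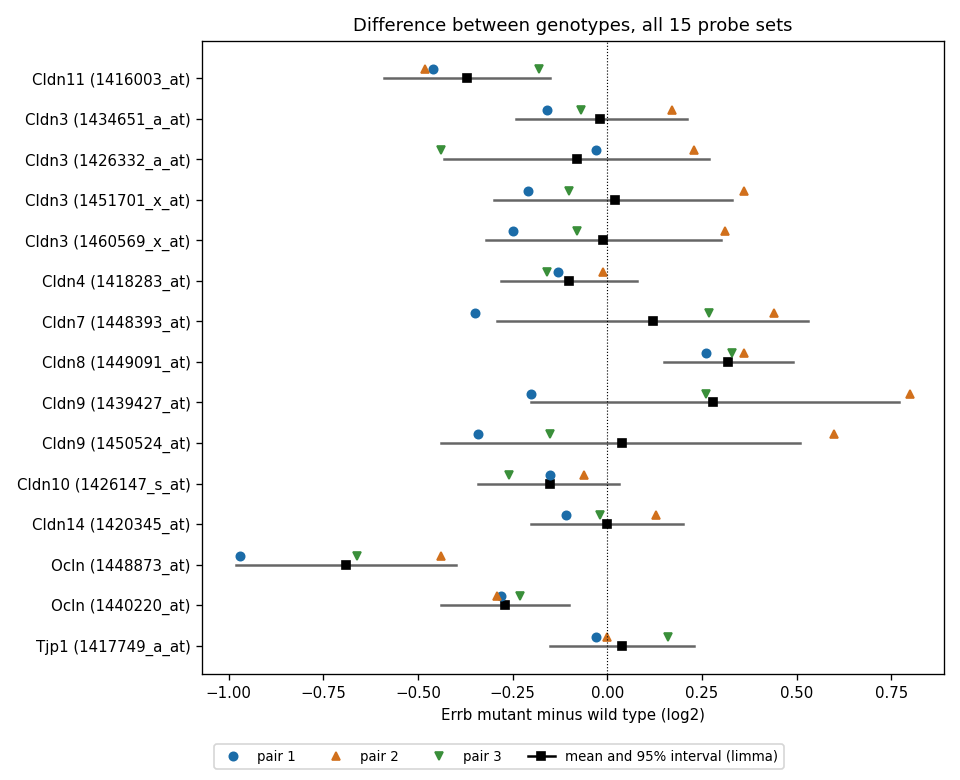
Mean difference, log2 of Errb mutant minus log2 of wild type, of all 15 probe sets (squares) with limma's 95% interval (bars) and the 3 pair values (coloured symbols above each bar). The intervals of Cldn11, Cldn8 and both Ocln probe sets leave out 0 before adjustment, and those of the other 11 probe sets hold it.

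Cldn11 was set against the 7 other claudins, Cldn3, Cldn4, Cldn7, Cldn8, Cldn9, Cldn10 and Cldn14, within each pair. The median difference of the 7 was -0.15, 0.17 and -0.02 in pairs 1 to 3, a mean of 0.00 ± 0.16. Cldn11 minus that median was -0.31, -0.65 and -0.16, a mean of -0.38 ± 0.25 (n = 3 pairs). Cldn11 had a more negative difference than all 7 in pairs 1 and 2, and in pair 3 only Cldn10 (-0.26) was more negative. The gap rested partly on pair 2, and its mean was -0.24 without that pair. Each of the 7 had its highest difference in pair 2, where 27.7% of all named genes did, whereas Cldn11 had its lowest there; this count was made after the values were seen. The 7 general epithelial markers had medians of -0.13, 0.18 and 0.02 in pairs 1 to 3, but only 2 of the 7, Krt8 and Krt18, had their highest difference in pair 2, and Cdh1 was lower in all 3 pairs (-0.26, -0.21 and -0.10). Their mean level lay between 8.34 and 9.60 in the mutant and between 8.51 and 9.52 in wild type. The part of epithelial content in the claudin values was not tested. Because the genes were chosen by name with earlier results known, the contrast carries no p-value.

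**Figure D3:**
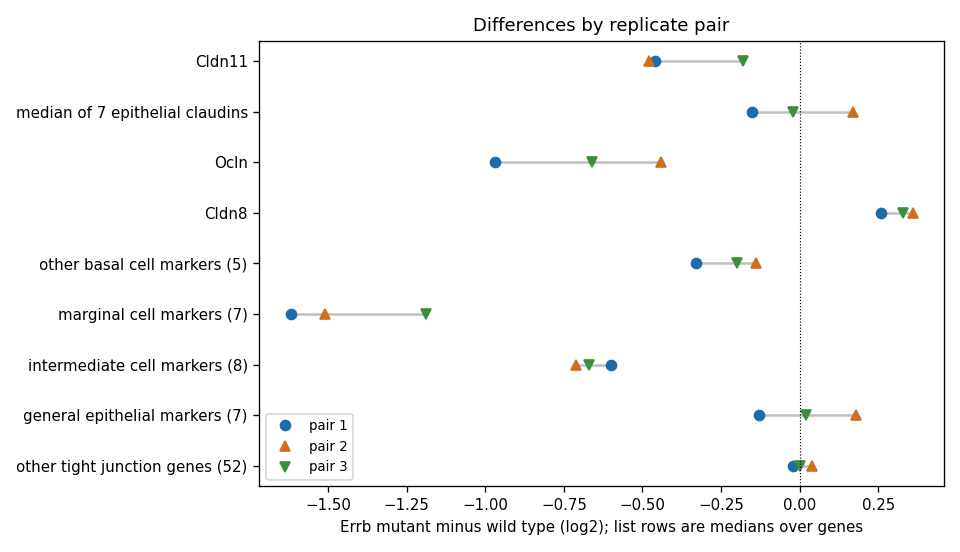
Difference, log2 of Errb mutant minus log2 of wild type, in each of the 3 replicate pairs, for Cldn11, Ocln and Cldn8 and for medians over lists of genes. Cldn11 lies left of 0 in all pairs, between -0.48 and -0.18, and the median of the 7 epithelial claudins lies on both sides of 0, close to that of the general epithelial markers.

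Ocln, the gene of occludin, had the largest difference of the 10 genes. Its best expressed probe set read 7.53, 8.89 and 8.10 in mutant replicates 1 to 3, against 8.50, 9.32 and 8.77 in wild type. The mutant array was the lower one of each pair, by -0.97, -0.44 and -0.66. The mean of -0.69 ± 0.27 is 1.61-fold lower in the mutant, with a 95% interval of -0.98 to -0.40 and an adjusted p of 0.257 in limma's paired fit. Only 0.506% of all probe sets had a more negative difference. The second Ocln probe set read 6.92, 7.53 and 7.45 in the mutant, against 7.21, 7.82 and 7.69 in wild type. It too was lower in each pair, by a smaller and more even -0.27 ± 0.03 (adjusted p = 0.449 in limma's paired fit). For this second probe set, 4.03% of all probe sets had a more negative difference. The 2 probe sets thus shared their sign and not their size. Without pair 1 the means were -0.55 and -0.26.

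Of the 7 listed markers of marginal cells, 6 had more negative mean differences than Ocln, and the exception was the targeted gene Esrrb itself (-0.07). The 7 had medians of -1.62, -1.51 and -1.19 in pairs 1 to 3 and mean levels of 7.60 to 8.56 in the mutant and 9.27 to 10.29 in wild type, with 4 called. Intermediate cell markers, 8 in all, had medians of -0.60, -0.71 and -0.67 and mean levels of 8.05 to 8.78 in the mutant and 8.52 to 9.43 in wild type, with 0 called. The part of either in the Ocln values was not tested.

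Tjp1 encodes the zonula occludens scaffold shared by most epithelia and endothelia. It read 11.34, 11.83 and 11.34 in the mutant, against 11.37, 11.83 and 11.18 in wild type. The difference was 0.04 ± 0.10 with a 95% interval of -0.15 to 0.23, and the sign differed between pairs. Over all 10 genes, 4 were lower in all 3 pairs by the best expressed probe set (Cldn4, Cldn10, Cldn11 and Ocln) and 1 was higher (Cldn8), where 9.03% and 12.9% of all named genes were. Those shares are lowered by equal values within a pair, which 34.2% of all probe sets had in pair 1 and none of the 15 described had. The counts are thus not directly comparable. The median difference of the 10 was -0.01 beside 0.00 for all named genes.

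A further 58 tight junction genes were listed, of which 52 had a probe set of their own. None was called in either direction, with 0 higher and 0 lower in limma's paired fit and 6 of 52 at an unadjusted p under 0.05, where 7.35% of all named genes were. The fit without the replicate block called 0 as well, with 1 gene, Cldn23, at an unadjusted p under 0.05, where 0.308% of all named genes were. The median difference of the 52 was 0.00. Of the 52, 7 were higher and 5 lower in all 3 pairs, where 12.9% and 9.03% of all named genes were. Of the 14 other claudins, 5 had positive and 9 negative differences. Cldn23 had the largest difference of the list, with 5.89, 8.04 and 6.94 in the mutant, against 5.40, 5.95 and 5.50 in wild type. The mutant array was the higher one of each pair, by 0.49, 2.10 and 1.44, a mean of 1.34 ± 0.81 or 2.53-fold (95% interval 0.59 to 2.09, adjusted p = 0.399 in limma's paired fit). The lowest mutant array lay just below the highest wild-type array, and without pair 1 the mean was 1.77. Cldn22 (0.40 ± 0.21) and Cldnd1 (0.33 ± 0.07) were also higher in all 3 pairs without being called. The other 2 probe sets of Cldnd1, which encodes a claudin domain protein, differed by 0.07 and 0.24.

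Cldn5, the claudin of endothelial junctions, differed by -0.42 ± 0.41, or -0.86, -0.06 and -0.34 in pairs 1 to 3, and by -0.20 without pair 1. Esam, an endothelial adhesion gene, differed by -0.26 ± 0.08 and was lower in each pair. The 6 endothelial markers, Cldn5 among them, had medians of -0.29, -0.15 and -0.12 in pairs 1 to 3. Their mean level ran from 7.49 to 8.87 in the mutant and from 7.87 to 8.99 in wild type, and their part in these values was not tested. The junctional adhesion genes Igsf5 (-0.19 ± 0.15) and F11r (-0.18 ± 0.12) were lower in each pair as well, though a second F11r probe set differed by 0.00. The 6 genes of that group had a median of -0.19.

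Tricellulin and the angulins hold together the corners where 3 cells meet, and loss of Marveld2 or Ildr1 causes deafness. Marveld2, the tricellulin gene, differed by -0.22 ± 0.53, or -0.83, -0.01 and 0.17 in pairs 1 to 3, so that the mean was 0.08 without pair 1. Lsr differed by -0.19 ± 0.42, again through pair 1 (-0.66), and by 0.05 without it. Ildr1 differed by -0.05 ± 0.16. Scaffold genes (10, median 0.01), polarity genes (9, median 0.03) and signalling and trafficking genes (7, median 0.05) lay close to 0. Ect2, which acts in cell division, was the highest of the last group at 0.26 ± 0.12 and was higher in each pair.

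**Figure D4:**
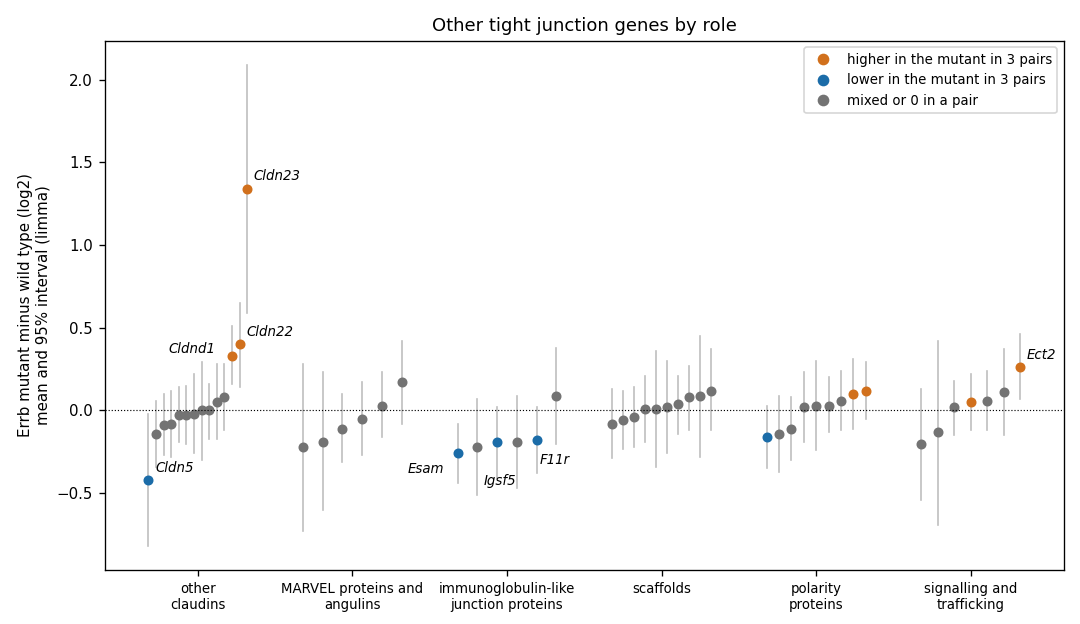
Mean difference, log2 of Errb mutant minus log2 of wild type, of the 52 other tight junction genes by role (best expressed probe set), with limma's 95% interval as a bar. Colours give genes with 1 sign in all 3 pairs. Cldn23 stands apart at 1.34 with a wide interval of 0.59 to 2.09, and most other points lie near 0.

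The genes most alike to Cldn11 were sought over the 6 arrays after each array's median was subtracted. Eps8l2 (Pearson's r = 0.985), Pde1b (0.984) and Utp14b (0.982) came first of 18192 genes, and 121 genes had r above 0.9. The arrays share replicate pairs, and how far these values follow the pairs or the genotype was not tested. The 3 genes differed by -0.13, -0.18 and -0.06 between genotypes, and none was called.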

How the data were processed

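RNA from 6 pools of 10 mice, 3 per genotype, was measured on 1 array each. The authors deposited 1 log2 value per probe set and array. The submitters' processing notes name RMA without version or settings, and the log2 scale was inferred from the range (2.33 to 14.6). No further normalization was applied. Of 45101 probe sets, 64 controls were left out and 45037 tested, with no filter on level. The platform annotation gives 1 symbol for 34945, several for 932 and none for 9160. The probe set of a gene with the highest average level stood for the gene.

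Replicate numbers come from the labels. Within pairs 1, 2 and 3, deviations of the arrays from their genotype's mean had correlations of 0.879, 0.818 and 0.746, all past the 0.1 needed for pairing, and 15406, 1185 and 1398 probe sets had exactly equal values in a pair, which is 34.2% of all probe sets in pair 1. Separate processing of each pair, which the sources do not state, could raise these correlations. None of the 15 probe sets described had an exact 0. Testing used limma 3.58.1 under R 4.3.3 (lmFit and eBayes, two-sided), with the replicate number as a block and Benjamini-Hochberg adjustment over all probe sets; the fit was tested on simulated data. No source says that the pools are more than separate samples, so the spread behind the p-values, which may be technical, is that of 6 arrays, whose number limits the precision.

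The genes, the lists and the tests were chosen with earlier results of these data known. Named genes were all 10 members, the listed tight junction genes with the largest differences of 1 sign in 3 pairs (up to 4 each way), Marveld2, Lsr and Ildr1, the 3 genes most alike to Cldn11, and Esrrb. Marker genes were named after their values were seen. Alternatives were the fit without the block, leaving out each pair, quantile normalization, median centring, other eBayes options, a filter on level, leaving out _x_at and _s_at probe sets, averaging over a gene's probe sets and an adjusted p under 0.01. Promoter windows are from RefSeq (GRCm38.p6).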

Additional observations from a re-analysis of the deposited data

How the results depend on the processing

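None of the 10 genes passed under any alternative, and 89 of 97 gene values under an alternative had the direction of the main value. Ocln ranged from -0.82 to -0.48 (adjusted p 0.108 to 1), Cldn11 from -0.47 to -0.32 (0.253 to 1) and Cldn8 from 0.30 to 0.34 (0.174 to 1). The replicate block changed no call among the 10 genes or the 52 listed tight junction genes; without it 1 higher and 2 lower probe sets were called of all tested, against 5 and 37 with it. At an adjusted p under 0.01 there were 3 higher and 3 lower, and eBayes with trend and robust options gave 8 higher. Leaving out each pair gave 0 to 3 higher and 0 to 4 lower, with 1 residual degree of freedom. Genes near 0 changed sign: Cldn14 was 0.02 with quantile normalization and 0.01 with medians subtracted, and over the pairs left out Cldn14 ran from -0.07 to 0.05, Cldn3 from -0.12 to 0.05, Cldn7 from -0.04 to 0.36 and Tjp1 from -0.02 to 0.08; the cause was not tested. Cldn11 minus the epithelial claudins ran from -0.48 to -0.24 with a pair left out, and was -0.53 with probe sets below the median level left out. The median of the other tight junction genes ran from -0.02 to 0.05 with a pair left out and was -0.03 when each gene's probe sets were averaged. Cldn10 and Cldn14 have no value under the filter on level, nor Cldn10 without _s_at probe sets. The files give no signal over background, so weak probe sets such as that of Cldn10 carry little information.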
